A study of Arabidopsis thaliana with 20 samples.

Results

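The regions described here are 3786 stretches of 100 bp on the chromosome arms of Arabidopsis thaliana at which the met1 mutant differs from wild type in DNA methylation in the CG context alone (met1 CG-only DMRs, for differentially methylated regions). They are 3786 of the 28608 met1 CG DMRs in the deposited tables. A DMR was kept when it shared no base with a met1 CHG or CHH DMR and began outside the pericentromere, the repeat-rich chromatin around each centromere. The DMRs are the authors' own calls, and the rule used no nucleosome measurement. CG methylation of met1-3 itself was not analysed here, so the loss of methylation at each DMR rests on those calls.

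The measurement was the coverage of histone H3 fragments. Chromatin of mature leaves from 3.5-week-old plants was cut with micrococcal nuclease, which digests the DNA between nucleosomes, and was then pulled down with an antibody against histone H3. The main groups were wild-type Col-0 and the mutant met1-3 in the Columbia background, with 2 replicates each. The tables hold 1 combined profile per genotype, so no difference below has a replicate check, a standard error or a p-value. The mutants drm2 and cmt3 of the same series were used where their tables covered the same bases, and methylation tables of Col-0, nrpe1 and swi3b where they met a DMR. All were labelled as leaves of the same age.

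MET1 is the maintenance methyltransferase that copies CG methylation onto the new DNA strand after replication. On the arms, CG methylation without CHG or CHH methylation is best known from the bodies of transcribed genes, while transposons usually carry all 3 contexts. The name CG-only refers here to the met1 calls and does not show that CHG or CHH methylation is absent. Of the arm DMRs, 1450 (38.3%) shared a base with a drm2 or cmt3 DMR of any context. The same share over all met1 CG DMRs is not given here, so this one does not set the arm DMRs apart. A nucleosome wraps DNA around a core of histones that includes H3, so a peak of H3 fragments marks a place where nucleosomes sit at the same position in many cells.

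The DMRs were spread over all 5 chromosomes, with 960 on chromosome 1, 653 on chromosome 2, 812 on chromosome 3, 561 on chromosome 4 and 800 on chromosome 5. Of them, 49.2% lay within 2 Mb of a pericentromere, and the share of arm sequence in those zones was not computed. Neighbouring DMRs often overlapped, since 65.1% shared a base with another member, and together they covered 307 kb in 1804 places at least 1 kb apart. The DMRs are therefore not independent observations, and shares of DMRs are given as descriptions.

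By the RefSeq gene table, 1397 of the DMRs (36.9%) had their centre in a protein-coding gene, 486 (12.8%) in a pseudogene, a class that in this annotation includes transposon genes, 62 (1.64%) in another RNA gene and 1841 (48.6%) in no gene. In the 17818 pericentromeric CG-only DMRs the protein-coding share was 8.22% and the pseudogene share 45.5%. The arm DMRs outside genes had a median distance of 870 bp to the nearest end of a protein-coding gene, against 5694 bp in the pericentromeres. In all, 701 protein-coding genes and 174 pseudogenes held at least 1 arm DMR. The gene table is of the assembly TAIR10.1 and the files are of TAIR10, so it was used for names and placement only. The pseudogene share was highest with the table in place (13.1%, counting every overlap) and fell to 12.6% and 12.5% when it was moved by 100 bp to either side. The protein-coding share was 36.9% in place and rose to 58.4% and 60.2% with the table moved by 5000 bp, so the arm DMRs lay in protein-coding genes less often than sequence at that distance.

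H3 coverage was on average higher over the arm DMRs than beside them. In Col-0 the mean H3 coverage over the DMR was 3.21 times that of the outermost 200 positions on each side of its window, called the flank. In met1-3 the same ratio was 2.71, a difference of -0.24 on the log2 scale. This DMR-over-flank ratio is taken within each genotype and does not depend on how the libraries are scaled to each other. At the tip of chromosome 2, 7 windows described below held 29.9% of the summed Col-0 coverage of the DMRs. Without them the ratio was 2.99 in Col-0 and 2.47 in met1-3, a difference of -0.28. The ratio of means is carried by well-covered windows. Of the 3351 arm windows with a Col-0 fragment, 67.5% had more coverage over the DMR than over the flank and 36.5% had their maximum in the DMR. In met1-3 these shares were 56.9% and 33.2% of 3189 windows. The share above the flank also fell in pericentromeric CG-only windows, from 66.5% to 59.8%. In windows of arm CG DMRs that overlap CHG or CHH DMRs it fell from 76.6% to 62.7%. The met1-3 profile was the shallower one, and how much of these falls comes from sparse coverage was not tested.

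The lower ratio in met1-3 was seen on each of the 5 chromosomes. Without the high windows, it went from 3.82 in Col-0 to 2.87 in met1-3 on chromosome 1, from 2.67 to 2.20 on chromosome 2 and from 3.09 to 2.78 on chromosome 3. On chromosome 4 it went from 2.66 to 2.11, and on chromosome 5 from 2.68 to 2.30. Chromosomes of 1 pair of profiles share their libraries and are not replicates. In the pericentromeric CG-only DMRs the ratio was lower than on the arms in both genotypes, at 2.10 in Col-0 and 1.89 in met1-3 (log2 difference -0.15, between -0.22 and -0.13 on single chromosomes). In the 1511 arm CG DMRs that do overlap CHG or CHH DMRs it went from 3.02 to 2.39 (log2 difference -0.34).

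**Figure D1:**
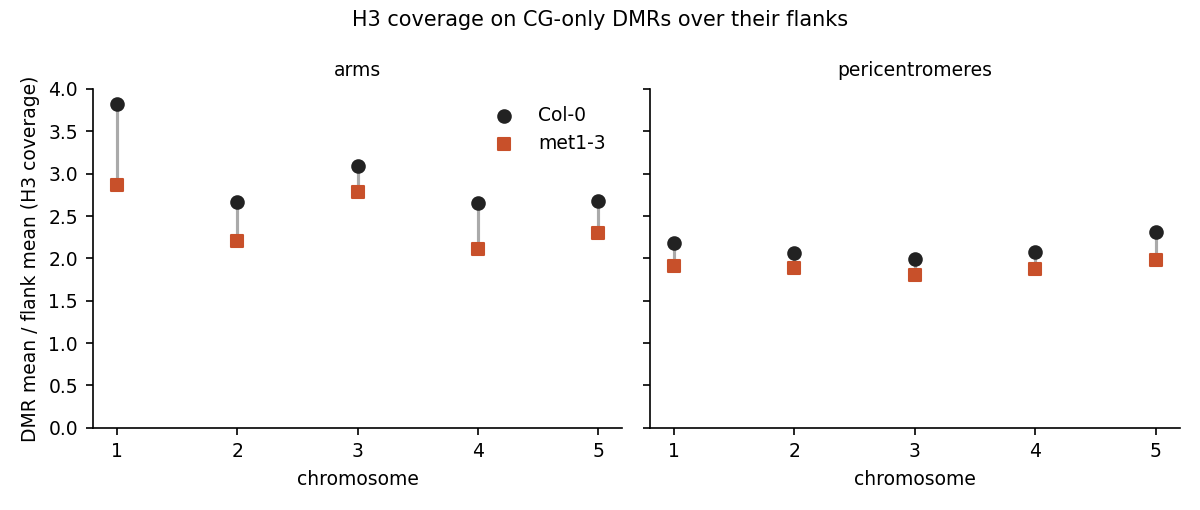
H3 coverage over CG-only DMRs divided by that of their flanks (y axis, ratio of means), by chromosome (x axis), on the arms (left) and in the pericentromeres (right), without windows above a Col-0 coverage of 300. Circles are Col-0 and squares met1-3, each 1 combined profile. The square lies below the circle on all 5 chromosomes in both panels, with the widest gap on the arms of chromosome 1 (3.82 against 2.87).

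The mean profile was a single peak over the DMR. It was highest 1 bp from the DMR centre in Col-0 and 2 bp from it in met1-3, with a width of 180 bp at 50% of its height in both genotypes. Coverage of met1-3 was divided by 0.372, the ratio of the 2 genotypes' summed flank coverage over all 28608 windows, to set levels side by side. On that scale the centre of the arm DMRs had a mean coverage of 9.86 fragments per base in Col-0 and 9.79 in met1-3, a ratio of 0.993. At 500 bp from the centre the means were 3.08 and 3.77, a ratio of 1.22. The lower DMR-over-flank ratio of the arm DMRs thus came with scaled flanks that were higher in met1-3, beside centres of nearly equal level.

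That split between centre and flank depends on the scaling. The flanks of the arm DMRs alone gave a factor of 0.460, which moves every log2 level difference by -0.31, so that the flanks become equal and the centres lower in met1-3. Which of the 2 parts of the window changed cannot be told apart from these tables, since a scale fixed outside the DMR windows was not used here.

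**Figure D2:**
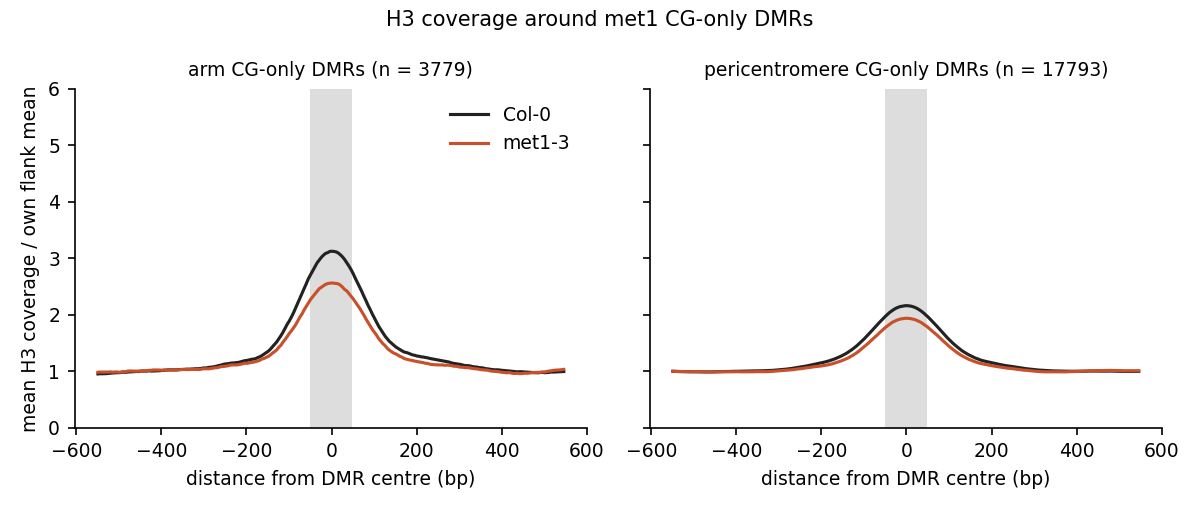
Mean H3 coverage divided by the genotype's own flank mean (y axis) against distance from the DMR centre in bp (x axis) for arm (left, 3779 DMRs) and pericentromeric (right, 17793 DMRs) CG-only DMRs, without windows above a Col-0 coverage of 300. Black is Col-0, orange met1-3 and the grey band the DMR. The arm peak reached 3.13 times the flank in Col-0 and 2.56 in met1-3, and the pericentromeric one 2.16 and 1.94.

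The decline of the DMR-over-flank ratio differed in size among gene classes. For DMRs in no gene it went from 3.91 in Col-0 to 2.96 in met1-3, for DMRs in protein-coding genes from 3.28 to 2.70 and for DMRs in pseudogenes from 2.02 to 1.72. The 61 DMRs in other RNA genes had ratios of 4.04 and 4.25. DMRs in no gene also had the lowest coverage, with a median of 1 fragment per base in Col-0, against 3.85 in protein-coding genes and 9.08 in pseudogenes. At the centre of DMRs in protein-coding genes the scaled met1-3 coverage was 1.1 times that of Col-0, and at 500 bp it was 1.36 times. For DMRs in no gene these values were 0.901 and 1.25, and for pseudogenes 0.928 and 1.07.

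**Figure D3:**
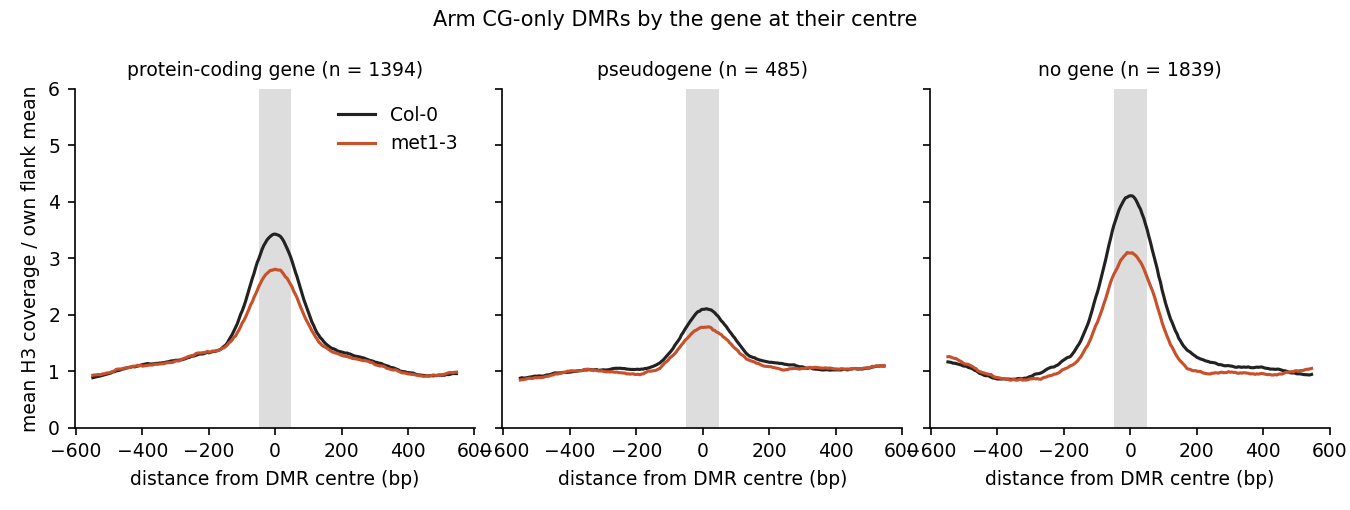
Mean H3 coverage over the genotype's own flank mean (y axis) against distance from the DMR centre in bp (x axis) for arm DMRs centred in a protein-coding gene, in a pseudogene or in no gene. Black is Col-0, orange met1-3 and the grey band the DMR. The peak over DMRs in no gene was the tallest of the 3 in Col-0 (4.11) and reached 3.11 in met1-3.

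Single DMRs had few fragments. The median coverage of an arm DMR was 2.83 fragments per base in Col-0, with 33.5 at the upper decile, and 2.15 in scaled met1-3, with 31.9. No fragment covered 26.9% of the DMRs in Col-0 and 41.3% in met1-3, whose profile was also the shallower one, and 879 DMRs (23.2%) had none in either. The pericentromeric DMRs were better covered, with a scaled met1-3 median of 10.4 and no fragment at 15.1% in Col-0 and 24.7% in met1-3. Next to the pericentromere limits, within 250 kb, the 328 DMRs on the arm side had medians of 2.91 and 1.96, and the 613 on the other side 4.95 and 4.55.

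Per DMR, 1655 of the 3786 (43.7%) were lower in met1-3, beside 53.7% of all met1 CG DMRs, and 1252 (33.1%) were higher, beside 33.3%. Scaled on the flanks of the arm windows instead, 51.5% were lower and 25.3% higher. The median log2 ratio, with 1 added to each coverage, was 0.00. That value is fixed by the DMRs with no fragment in either genotype, among which the median falls. Over DMRs with a fragment the median was -0.16. A decrease of at least 2-fold, with 1 added to each coverage, was found at 693 arm DMRs (18.3%, beside 18.4% of all met1 CG DMRs). An increase of that size was found at 365 (9.64%, beside 6.32%). On this scaling, and over all DMRs, the share of large decreases was at the background, and that of large increases above it. DMRs with no fragment in either genotype cannot count in either direction. They were 23.2% of the arm DMRs, beside 13.0% of all met1 CG DMRs, so these shares have unlike bases. The background shares include the arm DMRs themselves.

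Where Col-0 and scaled met1-3 coverage summed to 20 or more, 1023 arm DMRs remained. Of these, 46.0% were lower in met1-3, beside 58.4% of all met1 CG DMRs at that coverage, and 54.0% were higher, beside 41.6%. Among them, 65 were at least 2-fold lower (6.35%, beside 11.2%) and 91 at least 2-fold higher (8.90%, beside 4.36%). Their median log2 ratio was 0.06, against -0.07 for pericentromeric CG-only DMRs and -0.25 for arm DMRs shared with CHG or CHH. All sets were divided by the same 0.372, so their order depends on the scaling. The flanks of each set alone gave factors of 0.460, 0.395 and 0.383, in the same order. The DMR-over-flank ratio, over all DMRs of each set, differed by -0.24, -0.17 and -0.34 on the log2 scale. The directions above also depend on the filter, since a DMR could reach the summed coverage through either genotype alone. Where Col-0 alone had at least 10, 54.7% of 971 arm DMRs were lower in met1-3 and 45.3% higher. The same shares over all met1 CG DMRs were not computed for that filter. Complete loss of coverage over the DMR was rare. Of the 652 arm DMRs covered by 20 or more Col-0 fragments per base, none was without a fragment in met1-3. In the pericentromeric CG-only DMRs this held for 16 of 7019. At 10 or more it was 11 of 971 on the arms, beside 51 of 8986. DMRs left with a trace of coverage, such as the largest decrease below, are not in these counts. In the other direction, 3 of the 1068 arm DMRs covered by 10 or more scaled met1-3 fragments had no Col-0 fragment, beside 0 of 9001.

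Nucleosome position was compared at 815 of the 3786 arm DMRs. These were the DMRs with a maximum of at least 20 fragments in Col-0 and 8 in met1-3 within 150 bp of the centre, which leaves out DMRs with little met1-3 coverage. The maxima of the 2 genotypes were a median of 13.0 bp apart, and 66.5% were within 20 bp. The median signed shift was 0 bp, and 87 DMRs (10.7%) had a shift over 50 bp. For 8257 pericentromeric DMRs chosen in the same way, the median was 15.0 bp and 20.2% were over 50 bp. By class, the share over 50 bp was 5.56% of 216 arm DMRs in no gene, 12.4% of 371 in protein-coding genes and 13.9% of 209 in pseudogenes. The position of a maximum is uncertain where few fragments define it, and how much of these shifts is counting error was not tested.

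**Figure D4:**
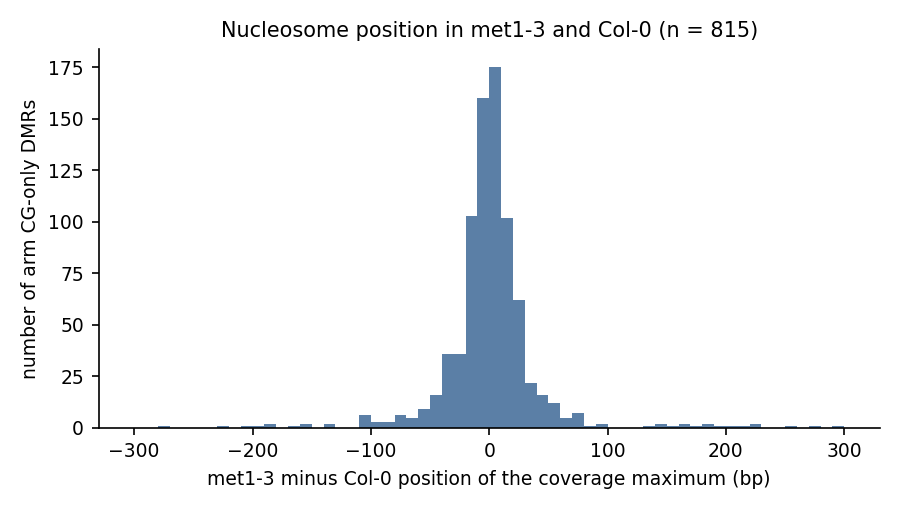
Number of arm CG-only DMRs (y axis) by the position of the H3 coverage maximum in met1-3 minus that in Col-0, in bins of 10 bp (x axis), for the 815 DMRs with enough coverage. The bars centre on 0, and 66.5% of the DMRs lie within 20 bp of it.

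The largest decrease was at a DMR in no gene on chromosome 1, 24908051 to 24908150. Its mean coverage was 20.9 in Col-0 and 0.0300 before scaling in met1-3, or 0.0807 after it, a log2 ratio of -4.34. At the central base there were 23 Col-0 fragments and 0 met1-3 fragments. The met1-3 share of those fragments was 0%, with an exact Clopper-Pearson 95% interval up to 14.8%. Equal occupancy would give 27.1% on the main scaling, and more with the arm flanks as scale. The highest met1-3 value anywhere in that window was 2 fragments, so no well-covered nucleosome was seen at another position within it.

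The next largest decrease, at a DMR in no gene on chromosome 1, 9574301 to 9574400, was from 18.7 to a scaled 1.78 (log2 ratio -2.82). In ftsh7, which encodes a protease of the FtsH family, the DMR on chromosome 3, 17335001 to 17335100, went from 24.5 to 4.33 (log2 ratio -2.26). The remaining 3 were in the protein-coding gene AT2G33175 (16.6 to 3.74) and the pseudogenes AT2G01840 (20.3 to 4.79) and AT5G01335 (22.5 to 6.08). The intervals on the met1-3 share at the central base stayed below 27.1% for each of these DMRs except that in AT2G33175, where it reached 30.4%. That reading holds for the main scaling, on which 27.1% stands for equal occupancy. These DMRs were picked as the extremes of 1023, so such intervals do not test them. Tables of drm2, a mutant of the methyltransferase that acts in RNA-directed DNA methylation, covered 4 of the 6 places. There the scaled drm2 coverage was 19.9, 25.5, 19.9 and 26.9 for the DMR on chromosome 1, ftsh7, AT2G33175 and AT2G01840, above the Col-0 value in each. The DMR in AT5G01335 was covered by the cmt3 tables, where its scaled coverage was 20.4. These values share the Col-0 profile with the met1-3 comparison.

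The largest increase was at a DMR in no gene on chromosome 5, 16844151 to 16844250. No Col-0 fragment covered it, while the mean met1-3 coverage was 14.4 before scaling and 38.7 after it. Col-0 was not empty around it, since its window reached 21 fragments at 254 bp from the centre, while the met1-3 maximum of 15 fragments lay 7 bp from the centre. Among the other increases, 3 were in genes of known function. The DMR in CLPP4, a subunit of the chloroplast Clp protease, went from 2.00 to 18.7, that in ERD4, an early gene of the dehydration response, from 6.48 to 33.4, and that in ECA2, a calcium pump of the endoplasmic reticulum, from 5.57 to 28.5. The other 2 were in AT3G25013 (2.38 to 19.4) and in no gene on chromosome 4, 6341251 to 6341350 (2.93 to 20.5). These increases rest on 7 to 15 met1-3 fragments at the central base.

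**Figure D5:**
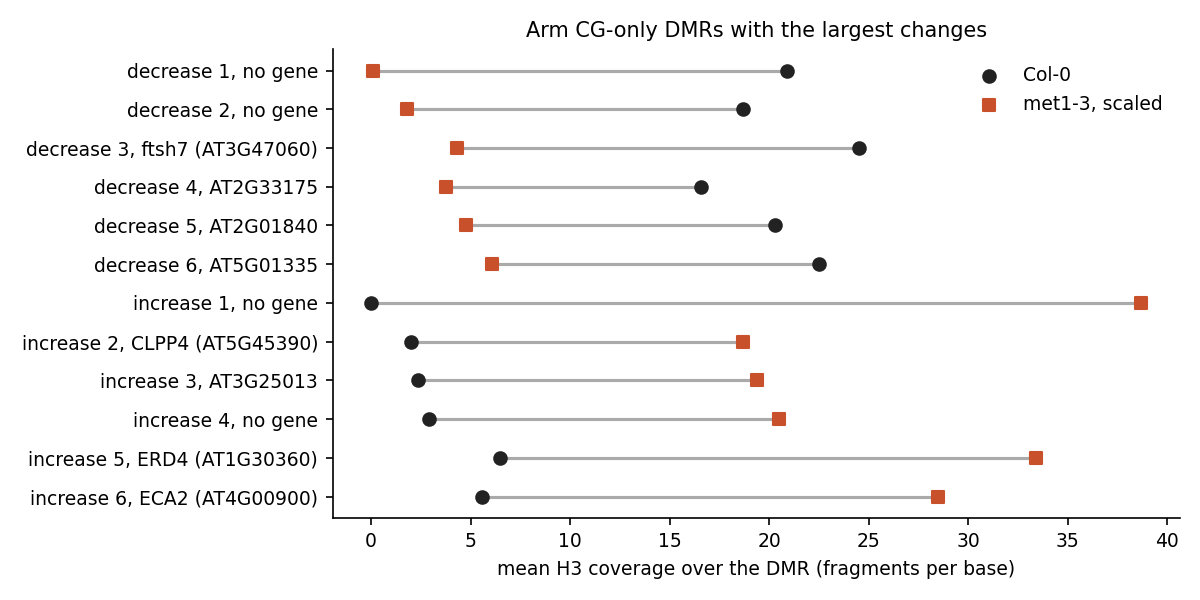
Mean H3 coverage over the DMR in fragments per base (x axis) for the 6 largest decreases and 6 largest increases among arm CG-only DMRs whose Col-0 and scaled met1-3 coverage summed to 20 or more (y axis, with the gene at the DMR centre). Circles are Col-0 and squares scaled met1-3, each 1 combined profile. Col-0 values lie between 16.6 and 24.5 for the decreases and between 0 and 6.48 for the increases, a contrast that the choice of extreme ratios above a summed coverage fixes.

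The highest coverage was at the tip of chromosome 2, beside ribosomal RNA genes. The DMR from 1851 to 1950, in AT2G01008, had 3748 fragments per base in Col-0 and a scaled 4368 in met1-3, and that from 10101 to 10200, in AT2G00340, had 2497 and 2290. There, 7 windows passed a Col-0 coverage of 300. Ribosomal RNA genes exist in many near-identical copies, and reads from the others may have been placed on the copy in the assembly, so these levels are uncertain.

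Several genes held many arm DMRs. AT1G58602 held 15, but its medians were 0 in both genotypes. The pseudogene AT4G16910 held 13, with Col-0 values from 20 to 50.9 (median 40.2) and scaled met1-3 values from 15.3 to 55.3 (median 29.3), lower at 8 and higher at 5. AT1G30090 held 10, with medians of 5.81 and 3.91, lower at 8. The pseudogene AT5G24775 also held 10, with medians of 14.8 and 22.3, higher at 8. ARF6, a transcription factor of the auxin response, held 9, with medians of 30.9 and 35.3, higher at 6 and lower at 3. These directions hold on the main scaling. With the arm flanks as scale, AT5G24775 was lower at 6 and higher at 4 (median log2 ratio from 0.22 to -0.04), and ARF6 lower at 7 and higher at 2 (from 0.19 to -0.11). DMRs of 1 gene often overlap.

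Among all 27432 protein-coding genes of the table, 2.56% held an arm DMR, 5.08% held a met1 CG DMR of any kind and 5.98% had an arm DMR inside or within 1 kb. Of 20 DNA methylation genes 1 held an arm DMR, namely NRPD2, the subunit shared by the plant RNA polymerases IV and V, which held 3. Its best covered DMR, on chromosome 3 from 8569851 to 8569950, had 19.6 in Col-0 and a scaled 29.0 in met1-3. The other 2 overlapped each other and had 2.58 and 4.44 in Col-0 and no fragment in met1-3. DCL3, which makes small RNAs, held a met1 CG DMR that is not among the arm CG-only DMRs, and an arm DMR within 1 kb of NRPD1, the largest subunit of RNA polymerase IV, had no fragment in either genotype. No arm DMR was held by any of 8 genes of DNA demethylation and protection of genes or 15 of nucleosome remodelling and assembly. The same was true of 7 genes listed as silenced by DNA methylation. At a background of 2.56% this says little about lists of this size. HIRA, a histone chaperone, held another met1 CG DMR, and an arm DMR within 1 kb of FIS2, a Polycomb gene of the seed, had no fragment in either genotype.

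The longest unbroken runs of arm DMRs differed in coverage. Those on chromosome 3 from 8231551 to 8232100 and on chromosome 5 from 8502751 to 8503300 held 10 DMRs each, and that on chromosome 3 from 8408951 to 8409450 held 9, all in no gene. In the first, no DMR had more than 1 fragment per base in Col-0. In the second, Col-0 coverage ran from 2.37 to 13.6 and scaled met1-3 from 0 to 7.67, and in the third from 0.740 to 6.20 and from 0 to 2.69.

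At bases that the drm2 tables also cover, the ratio of DMR to flank could be set beside that of a mutant that keeps MET1. Over 2077 arm DMRs, without the high windows, it was 3.02 in Col-0, 2.47 in met1-3 and 2.90 in drm2. Over 224 arm DMRs covered by the tables of cmt3, a mutant of the CHG methyltransferase, it was 2.04 in Col-0, 1.73 in met1-3 and 2.16 in cmt3. All of these share the same Col-0 profile, and the DMRs covered are those near a DMR of the other mutant.

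The deposited lists hold 690 Pol V and 4089 SWI3B stabilized nucleosomes. Of the arm DMRs, 11 (0.291%) overlapped a nucleosome of the Pol V list, beside 0.0909% of all met1 CG DMRs and 0.0393% of the pericentromeric CG-only ones. For the SWI3B list these were 23 (0.608%), 0.129% and 0.0561%. The methylation windows reach beyond the nucleosomes and met 69 and 102 arm DMRs. Levels were averaged over the positions with a value in Col-0, nrpe1 and swi3b alike, a median of 9 and 17 per DMR. For the 38 with such values in windows of the Pol V list, the mean was 5.22% in Col-0. It was 0.823% in nrpe1, a mutant of the largest subunit of RNA polymerase V, and 4.33% in swi3b, a mutant of a SWI/SNF remodeller subunit. For 85 in windows of the SWI3B list these means were 3.33%, 0.222% and 3.07%. The means rest on few DMRs, since Col-0 was at 10% or more at 6 of the 38 and 9 of the 85, some of them neighbours. All of these genotypes were at 0 at 2 of the 38 and 25 of the 85. The cytosine context of these values is not given in the sources used here, and neither is their read depth.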

How the data were processed

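Groups were taken from the sample titles. H3 values are coverage, deposited as whole numbers at 1099 positions around each 100 bp DMR, as 1 signal profile per genotype over both replicates. Methylation values are fractions as deposited by the authors, with no counts, so their depth is unknown. Per the submitters' processing notes, the build was TAIR10 and the tools included Bowtie2, Picard, Bismark and methylKit; their settings are not given in the sources used here. The coverage is not normalized in the files, so met1-3 was divided by the quotient of its total to Col-0's total in the outer 200 positions at either end of all met1 CG windows. Per DMR, the mean coverage and log2((met1-3 + 1)/(Col-0 + 1)) were computed. This scale understates changes at low coverage. No test was run, since a test was planned for replicate columns and the files hold 1 profile per genotype. Exact Clopper-Pearson 95% intervals describe counting error alone, because 1 combined profile per genotype holds no replicate spread. They may be too narrow even for that, because PCR copies of a fragment cannot be recognised by a molecular identifier.

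Named DMRs were the 6 lowest and 6 highest log2 ratios where Col-0 and scaled met1-3 coverage summed to 20 or more, and the 3 of highest Col-0 coverage, at most 1 per place of 1 kb, beside the 3 longest runs. Named genes were the 5 with most DMRs and the members of 4 lists. The members and lists were chosen with earlier results of these data known. Leaving out windows above a Col-0 coverage of 300, leaving out DMRs without fragments, and scaling gene classes and genes on arm flanks were chosen after seeing the data. The scale factor and the log2 ratios were tested on simulated data whose flanks differed between genotypes in depth alone. The simulation therefore cannot show whether real flanks are unchanged. The DMR-over-flank ratio, the positions and the intervals were not simulated. Python 3.11.15, numpy 2.4.6, pandas 2.3.3, scipy 1.17.1 and matplotlib 3.10.9 were used.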

Additional observations from a re-analysis of the deposited data

How the results depend on the processing

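No paired analysis was possible because the tables hold 1 combined profile per genotype and no replicate columns, and for the same reason leaving out a replicate was not possible. The split by number of CG sites and by exon, intron or transposon was not run, since no genome or exon annotation was used here. Levels depend on the scaling and on low coverage, and the DMR-over-flank ratio was lower in met1-3 under each alternative run for it.

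The median log2 ratio of 0.00 became -0.83 without scaling, -0.05 with scaling on the flanks of the arm windows, -0.01 on flank bases in no met1 DMR, 0.03, 0.08 and 0.06 at a summed coverage of both genotypes of at least 5, 10 and 20, and -0.07 where Col-0 alone had at least 10. As a mean it was -0.17, as a ratio of sums 0.06 and over DMRs with a fragment -0.16. The share lower (43.7%) was 67.5% without scaling, 51.5% with arm flanks, 50.1% with bases in no DMR, 50.0% with all arm window bases and 40.6% with TMM. It was 47.9% and 46.0% at a summed coverage of at least 5 and 20, 54.7% where Col-0 alone had at least 10, 40.2% without DMRs that share a base with a drm2 or cmt3 DMR and 56.9% with a fragment. The share higher (33.1%) was 8.80%, 25.3%, 26.7%, 26.8% and 36.2% under the same 5 scalings. It was 52.1%, 54.7% and 54.0% at a summed coverage of at least 5, 10 and 20, 45.3% where Col-0 alone had at least 10, 34.8% over 150 bp and 43.1% with a fragment.

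The DMR-over-flank ratios of 3.21 and 2.71 became 4 and 3.11 with flank bases in no met1 DMR. They were 3.83 and 3.33, 4.04 and 3.53, and 4.32 and 3.79 at a summed coverage of at least 5, 10 and 20, 4.34 and 3.70 where Col-0 alone had at least 10, and 2.52 and 2.23 without drm2 or cmt3 DMR bases. The arm minus pericentromere difference of medians (0.02) was 0.34 without scaling, 0.24, 0.23 and 0.23 with arm flanks, bases in no DMR and all arm window bases, 0.11, 0.14 and 0.13 at a summed coverage of at least 5, 10 and 20, 0.15 as a ratio of sums and -0.01, reversed, over DMRs with a fragment. Without scaling the class medians were -0.82 in protein-coding genes, -1.26 in pseudogenes and -0.57 in no gene, and with arm flanks the pseudogene median was -0.35. Without scaling the DMR of highest coverage turned from 0.22 to -1.21. With arm flanks the gene medians of AT5G24775 and ARF6 turned to -0.04 and -0.11. The cause of these moves, beyond the scaling and the filters themselves, was not tested.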
